A study of Mus musculus with 48 samples.

Results

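Ypel3 and its 4 paralogues, Ypel1, Ypel2, Ypel4 and Ypel5, make up the yippee-like gene family of the mouse. They were found in the gene table by their Ensembl identifiers, 5 genes of 47069 in all, and each symbol had 1 identifier. Ypel3 lies inside the deleted interval that the study examined, and the other 4 members lie on other chromosomes. RNA was sequenced from the cortex, striatum and cerebellum of 8 wild-type mice and of 8 mice with a deletion at 7qF3, the mouse segment syntenic to human 16p11.2. Every animal gave all 3 tissues, so the 6 groups of 8 libraries came from 16 animals, and each group held 4 males and 4 females. All animals, controls included, were of mixed C57BL/6N:129Sv background. The labels state neither the number of copies lost nor the ends of the deletion, and their age entry is a date. All males carry one date and all females another, so an effect of sex and one of date cannot be told apart. The labels give no age as such.

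Yippee-like proteins are short, strongly conserved zinc-binding proteins built from a single yippee fold. The same fold occurs in cereblon, the thalidomide-binding substrate receptor. YPEL3 was described in human cells as a gene induced by the tumour suppressor p53 that halts proliferation, and human YPEL3 lies within 16p11.2. YPEL5 associates with the CTLH/GID complex, a ubiquitin ligase of many subunits. The roles of Ypel1, Ypel2 and Ypel4 in the adult brain are less well defined.

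On GRCm38, Ypel3 (ENSMUSG00000042675) is at chr7:126776955-126780514 on the plus strand, a gene of 3560 bases. Ypel1 (ENSMUSG00000022773) is at chr16:17069696-17087045, plus strand, and Ypel2 (ENSMUSG00000018427) at chr11:86936425-86993707, minus strand. Ypel4 (ENSMUSG00000034059) is at chr2:84734058-84738655, plus strand, and Ypel5 (ENSMUSG00000039770) at chr17:72836453-72851195, plus strand. The coding parts are of nearly one length, 354 to 381 bases, in 4 coding exons for 4 members and in 2 for Ypel5. What differs is the remainder of the messenger: the union of annotated exons is 1848 bases for Ypel3 and 2614 for Ypel4, against 4185 for Ypel5, 4635 for Ypel1 and 4847 for Ypel2.

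The paralogues are alike enough that reads might have been shared between them, so their coding sequences were compared. A stretch of 60 coding bases is shown for each member, since it bears on whether a short read could tell them apart. Among ungapped in-frame stretches within a single exon of every member, it was picked as the most alike. Likeness was scored as the summed identity of Ypel1, Ypel2 and Ypel4 to Ypel3, so its differences are not typical of the whole genes. Capitals mark the bases that differ from Ypel3 at the same place in the alignment.
Ypel3: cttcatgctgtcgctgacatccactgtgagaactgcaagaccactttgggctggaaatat
Ypel1: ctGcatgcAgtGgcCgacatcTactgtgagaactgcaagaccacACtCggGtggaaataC
Ypel2: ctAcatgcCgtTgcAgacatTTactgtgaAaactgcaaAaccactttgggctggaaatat
Ypel4: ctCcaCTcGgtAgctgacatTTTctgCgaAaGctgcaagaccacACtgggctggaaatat
Ypel5: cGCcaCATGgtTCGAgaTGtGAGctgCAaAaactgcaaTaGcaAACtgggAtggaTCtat

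These bases lie at chr7:126778355-126778414 (plus) in Ypel3, chr16:17082117-17082176 (plus) in Ypel1 and chr11:86944573-86944632 (minus) in Ypel2. In Ypel4 they lie at chr2:84737469-84737528 (plus) and in Ypel5 at chr17:72848631-72848690 (plus), all on GRCm38 and within coding exons. Ypel1 differed from Ypel3 at 10 of the 60 places, Ypel2 at 8, Ypel4 at 13 and Ypel5 at 26. Over the whole aligned coding sequence, Ypel3 was identical to Ypel2 at 82.1% of positions, to Ypel1 at 79.1%, to Ypel4 at 75.4% and to Ypel5 at 55.3%. The longest run of bases that any pair of members had in common in their transcripts was 25. No window of 50 bases of a member's transcripts occurred in another member. Ypel3, Ypel2 and Ypel4 had 0 such windows in any other annotated gene. In Ypel1, 10.7% of windows also occurred in Ppil2, a gene on the opposite strand that overlaps its end by 491 bases, or in the pseudogene Gm9974, which lies inside it. In Ypel5, 1.17% of windows occurred elsewhere. Counts of Ypel1 are therefore the least certain of the family, because it is not known whether the counting used strand.

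Gene counts per library lay between 29244745 and 60751792, around a median of 32232112. The highest was a deletion striatum library, and the next highest held 36507597. All 5 members passed the filter on low counts in all 3 tissues. Marker genes set some libraries apart. In 4 striatum libraries (D810, W805, W813 and W815) markers of thalamus lay above those of striatal neurons. The latter had a mean log2 CPM of 3.33 to 5.17 there, against 4.79 to 9.02 in the other striatum libraries. Choroid plexus markers were above 4 in the striatum libraries W813 (4.96) and W816 (6.91) and in the cortex libraries W813 (6.36) and D802 (4.08), against -0.02 to 3.34 in the rest of cortex. In cerebellum they varied most, from 0.03 in W814 to 7.35 in W813, and no fit left out cerebellum libraries as a set for them. In cortex the markers of striatal neurons ran from 3.08 in W814 to 7.92 in D803. The cerebellum library of D809 had a mean log2 CPM of 6.54 for cerebellar markers, against 8.04 to 9.23 in the other cerebellum libraries, and 10.82 for oligodendrocyte markers, against 8.03 to 10.58.

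Ypel3 was lower in every tissue of the deletion animals, and no paralogue was called. Mean Ypel3 in deletion animals was 45.0% of the wild-type mean in cortex, 53.5% in striatum and 49.6% in cerebellum. EdgeR's test over all genes did not call Ypel3 in any tissue, although the size of its difference was like that of interval genes that were called. In bulk tissue, fewer cells of a type and less RNA per cell cannot be told apart.

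In cortex, Ypel3 in CPM (its counts per 1000000 gene counts of the library, after TMM scaling of library sizes) ran from 138 through a median of 263 to 314 in wild-type animals, and from 52.2 through 114 to 139 in deletion animals. The groups touched at one point: 7 of 8 deletion libraries lay below the lowest wild-type library, that of W805, and D804 lay just above it. The means were 235 ± 64.9 and 106 ± 31.9 CPM (SD, n = 8 each). The log2 fold change, deletion relative to wild type, was -1.16 ± 0.22 (SE; 95% interval -1.63 to -0.69; edgeR quasi-likelihood test with Benjamini-Hochberg adjustment, adjusted p = 0.0612). In this comparison 0 of 5 members were called, beside 0.130% of the 16877 genes tested, and Ypel3 ranked at place 23 by p. Ypel3 was the 1 member with an unadjusted p under 0.05, and DESeq2 called it (adjusted p = 2.45e-04, with 0.130% of 26224 genes called), while limma-voom did not (adjusted p = 0.0794, with 0.130% of genes called). Leaving out W805, W816 or D809 brought the edgeR adjusted p to 0.0121, 0.0406 and 0.0428, and over the 16 animals left out in turn the log2 fold change stayed between -1.26 and -1.06. Without the cortex libraries W813 and D802, high in choroid plexus markers, it was -1.10 (edgeR adjusted p = 0.353).

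In striatum, wild-type Ypel3 ran from 94.8 through 131 to 227 CPM and deletion Ypel3 from 49.6 through 83.5 to 117 CPM. Here 6 of 8 deletion libraries lay below the lowest wild-type library, and the wild-type libraries W816 and W815 lay within the deletion range. The means were 158 ± 54.3 and 84.3 ± 20.6 CPM (SD, n = 8). The log2 fold change was -0.91 ± 0.19 (SE; 95% interval -1.32 to -0.50; edgeR adjusted p = 0.163). Again 0 of 5 members were called, beside 0.128% of the 17198 genes tested, while DESeq2 called Ypel3 (adjusted p = 0.00585, with 0.225% of 21784 genes called) and limma-voom did not (adjusted p = 0.201, with 0.134% of genes called). Without the 4 libraries whose thalamus markers lay above their striatal neuron markers the log2 fold change was -0.87, and without the 2 high in choroid plexus markers it was -0.81.

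In cerebellum, where Ypel3 was most abundant, it ran from 163 through 307 to 396 CPM in wild-type animals and from 87.0 through 170 to 184 CPM in deletion animals. The single low wild-type library, W805, reached into the deletion range, so that 3 of 8 deletion libraries lay below the lowest wild-type library and all 8 lay below the wild-type mean. The means were 306 ± 75.5 and 152 ± 38.7 CPM (SD, n = 8). The log2 fold change was -1.02 ± 0.20 (SE; 95% interval -1.44 to -0.60; edgeR adjusted p = 0.0766). In cerebellum 0 of 5 members were called, beside 0.138% of the 16672 genes tested, and DESeq2 called Ypel3 (adjusted p = 4.83e-04, with 0.119% of 26013 genes called). Limma-voom did not call it (adjusted p = 0.0922, with 0.144% of genes called). Without W805 the edgeR adjusted p was 0.0140.

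A test of Ypel3 alone passed in all 3 tissues. An exact 2-sided permutation test of mean log2 CPM over all 12870 ways of drawing 8 of the 16 libraries gave p = 3.11e-04 in cortex, 0.00109 in striatum and 9.32e-04 in cerebellum (9.32e-04, 0.00109 and 0.00109 after Benjamini-Hochberg adjustment over the 3 tissues). The direction was shared by both sexes. Male means were 120 against 248 CPM in cortex, 97.4 against 177 in striatum and 147 against 286 in cerebellum. Female means were 92.0 against 222, 71.2 against 138 and 156 against 326 CPM.

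**Figure D1:**
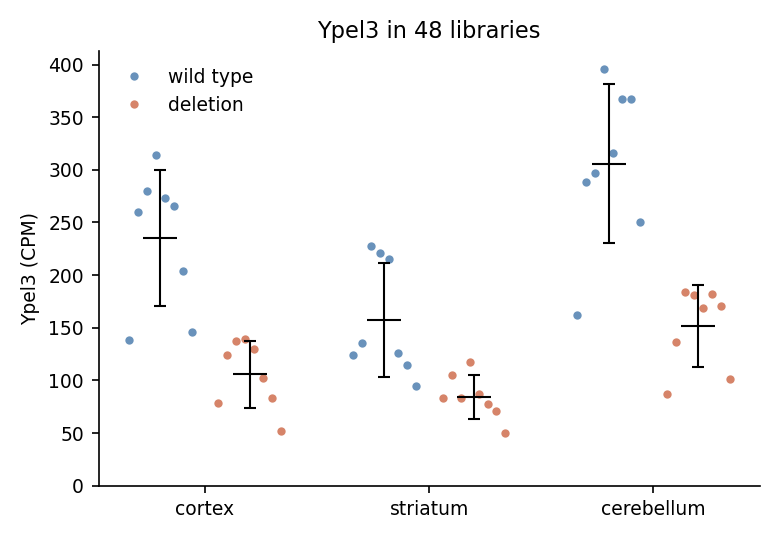
Ypel3 in CPM (vertical axis) in each of the 48 libraries, by tissue, with wild-type libraries in blue and deletion libraries in orange; bars give the mean and SD of 8 libraries. The deletion mean is 45.0% of the wild-type mean in cortex, 53.5% in striatum and 49.6% in cerebellum, and 1 wild-type library in cortex, 2 in striatum and 1 in cerebellum reach the deletion range.

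The size of the Ypel3 loss lay within the range of the tested genes of the interval and its edges, though near its small end in striatum. Of the tested genes of the interval and its edges, edgeR called 19 of 27 lower in cortex, 19 of 28 in striatum and 20 of 29 in cerebellum, where 0.119%, 0.116% and 0.126% of all genes tested were called lower. Their median log2 fold changes were -1.08, -1.04 and -1.02. Counted from the largest loss, Ypel3 was at place 6 of 27 in cortex, 26 of 28 in striatum and 15 of 29 in cerebellum. In striatum only Bola2 (-0.85) and Sept1 (-0.09), both at or beyond the edges, fell less. What was larger was the error. The SE of Ypel3 was 0.22, 0.19 and 0.20 on the log2 scale in the 3 tissues, beside medians of 0.17, 0.16 and 0.17 over these genes, and only 4, 8 and 8 of them had a larger one. This went with high counts, since only 2, 5 and 2 of these genes had a higher wild-type CPM than Ypel3.

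The genes beside Ypel3 on the chromosome gave similar sizes with various errors. Mapk3, which encodes the kinase ERK1 and lies upstream, had log2 fold changes of -0.76 ± 0.21, -0.92 ± 0.12 and -0.95 ± 0.16 (SE) in cortex, striatum and cerebellum. EdgeR called Mapk3 in striatum and cerebellum (adjusted p = 0.00111 and 0.0140) but not in cortex (0.860). Gdpd3, which ends 1305 bases before Ypel3, was very variable, with values of -0.87 ± 0.94, -1.19 ± 0.94 and -0.85 ± 0.91, none of them called. Downstream, Tbx6, the gene of a mesodermal transcription factor, starts 968 bases after Ypel3 and was near the floor of expression at 1.42 CPM in wild-type cortex. Its log2 fold changes were -0.90 ± 0.20, -0.98 ± 0.16 and -0.75 ± 0.25, and edgeR called it in striatum (adjusted p = 0.0167). Ppp4c, the catalytic subunit of protein phosphatase 4, was called in all 3 tissues at -1.05 ± 0.18, -0.94 ± 0.16 and -1.08 ± 0.18 (edgeR adjusted p = 0.0286, 0.0199 and 0.0133).

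The spread of Ypel3 between animals followed a feature that the libraries shared. A length score was computed for each library as the mean log2 CPM of the shortest 25% of protein-coding genes minus that of the longest 25%, by longest transcript, with interval genes and family members left out. Across the 48 libraries, after subtraction of each tissue-by-genotype mean, Ypel3 had a Pearson correlation of 0.937 with this score. It was 0.938 in cortex, 0.976 in striatum and 0.904 in cerebellum, 16 libraries each. These points share the library and its scaling, and libraries of one animal are not independent, so the values are descriptions. Libraries low in Ypel3 for their group had low scores. D812 had the lowest Ypel3 and the lowest score of the deletion animals in cortex and in striatum, W816 the lowest of both among wild-type animals in striatum, and W805 the lowest of both among wild-type animals in cerebellum. D812, W805 and W816 lay below their group mean of Ypel3 in all 3 tissues, and in all 9 of the 16 animals kept one side of it in all 3.

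The score itself differed little between genotypes beside its spread. It was -0.77 ± 0.63 in deletion against -0.56 ± 0.44 in wild-type cortex (SD, n = 8). In striatum it was -0.72 ± 0.46 against -0.80 ± 0.67, and in cerebellum -0.61 ± 0.56 against -0.64 ± 0.58. With the score as a covariate, a fit chosen after seeing the data, the log2 fold change of Ypel3 was -0.996 ± 0.081 in cortex, -0.94 ± 0.05 in striatum and -1.06 ± 0.08 in cerebellum (SE). EdgeR then called Ypel3 in all 3 tissues, with adjusted p = 3.33e-06, 9.17e-08 and 2.99e-06. In these fits 0.160%, 0.169% and 0.180% of the genes tested were called. The SE of Ypel3 thus dropped to 0.08, 0.05 and 0.08, from 0.22, 0.19 and 0.20. What sets the score was not tested.

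**Figure D2:**
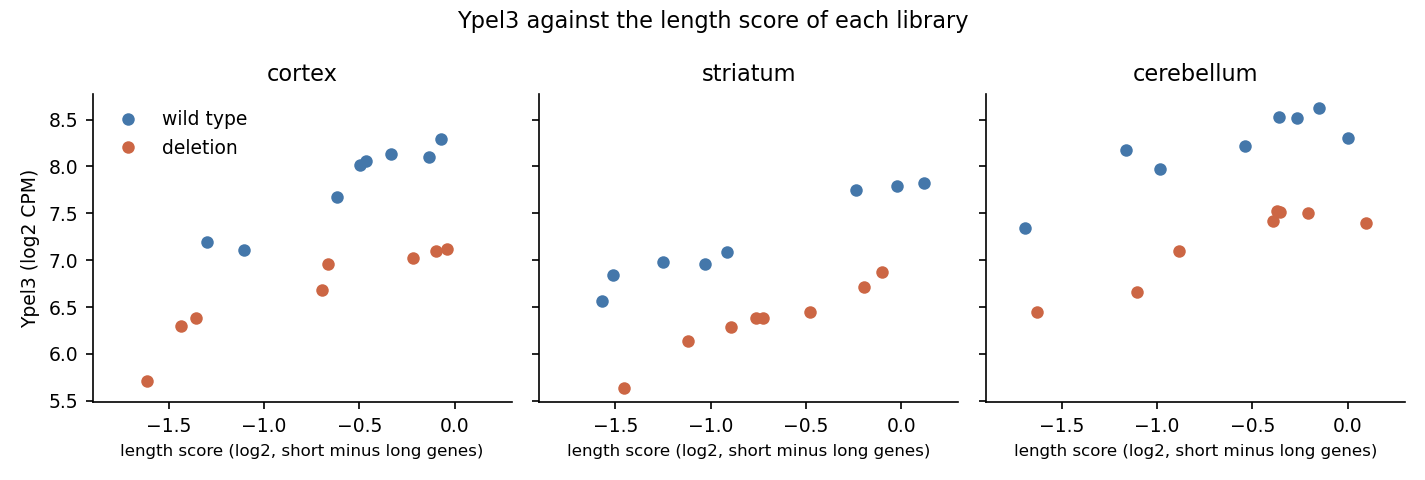
Ypel3 in log2 CPM (vertical axis) against the length score of the library (horizontal axis, log2, short genes minus long genes), 1 point per library, in blue for wild type and orange for deletion, 16 libraries per tissue. Both genotypes rise along the score, and at a given score the deletion libraries lie lower. After subtraction of each tissue-by-genotype mean, which the plotted values do not have, the correlations are 0.938, 0.976 and 0.904 in cortex, striatum and cerebellum.

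The genes whose pattern over libraries was most like that of Ypel3 were Ift20, a subunit of the intraflagellar transport machinery, Klhdc3, a kelch-domain protein, and Eif2b4, a subunit of the exchange factor for translation initiation factor eIF2. Their Pearson correlations with Ypel3 over the 48 libraries, from 13558 genes compared and after subtraction of group means, were 0.977, 0.975 and 0.973. Their exon unions were 1525, 2593 and 2599 bases. The genes of most opposite pattern were Csmd3, Zfp462 and Xpr1, at -0.965, -0.963 and -0.961, with exon unions of 16882, 10702 and 17880 bases. EdgeR called none of the 3 alike genes for the deletion in any tissue, and their log2 fold changes lay between -0.25 and 0.06.

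Ypel3 was also set against the mean of these 3 genes within the same library. The 3 genes were picked for following Ypel3 within the groups of these same libraries, so the small spread of the ratio within a group follows from that choice, and with it how far the groups overlap. The log2 ratio ran from 0.98 to 1.34 in wild-type cortex and from -0.02 to 0.39 in deletion cortex. It ran from 0.95 to 1.25 against -0.02 to 0.38 in striatum, and from 1.30 to 1.73 against 0.40 to 0.68 in cerebellum. All 8 deletion libraries of each tissue were below all 8 wild-type libraries. The SD of the ratio was 0.10 to 0.14 in each group. This ratio was devised after seeing the data and is given as a description.

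The 4 paralogues were called in no fit of deletion against wild type. EdgeR called none of the 4 in any tissue, none had an unadjusted p under 0.05, and DESeq2 and limma-voom called none. Values are given with 95% intervals, which bound how far a paralogue could have risen or fallen.

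Ypel4, the second most abundant member per length, ran from 75.1 through 105 to 130 CPM in wild-type and from 78.7 through 98.4 to 107 CPM in deletion cortex. The deletion range lay inside the wild-type range. Its log2 fold change was -0.14 ± 0.13 (SE; 95% interval -0.41 to 0.12). In striatum Ypel4 was at 84.1 ± 15.1 CPM in wild-type and 84.1 ± 13.6 in deletion animals (SD, n = 8), with a fold of 0.997 and an interval from 0.825 to 1.21. In cerebellum Ypel4 was at 137 ± 19.3 and 137 ± 23.7 CPM, with a log2 fold change of -0.01 ± 0.12 (SE; 95% interval -0.27 to 0.24).

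Ypel5, the member tied to the CTLH/GID complex, ran from 101 through 111 to 123 CPM in wild-type and from 92.2 through 110 to 146 CPM in deletion cortex. Wild-type cortex was the tightest group of the family, with a coefficient of variation of 7.19%. The log2 fold changes of Ypel5 were 0.02 ± 0.11 in cortex, 0.13 ± 0.11 in striatum and 0.11 ± 0.14 in cerebellum (SE). The 95% intervals ran from -0.20 to 0.25, from -0.10 to 0.36 and from -0.18 to 0.40.

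Ypel2 had the widest spread of the family in striatum relative to its mean, with a coefficient of variation of 48.2% in wild-type and 40.4% in deletion animals. It ran from 23.0 through 48.4 to 85.5 CPM in wild-type and from 30.4 through 44.6 to 88.3 CPM in deletion animals. The groups overlapped over almost their whole range. Its log2 fold changes were 0.15 ± 0.17 in cortex, 0.12 ± 0.30 in striatum and 0.09 ± 0.12 in cerebellum (SE). The 95% intervals were -0.20 to 0.50 in cortex and -0.17 to 0.36 in cerebellum. The interval in striatum, a fold of 0.701 to 1.69, leaves room for a change that these libraries could not resolve. The striatum libraries of highest Ypel2, W806 and D811, had striatal neuron markers at a mean log2 CPM of 8.17 and 7.88. Those of lowest Ypel2, W813 and D804, had them at 3.33 and 4.79. W808 went the other way, with markers at 7.25 and Ypel2 at 42.2 CPM, below its group mean. The part of the dissection in the Ypel2 spread was not tested.

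Ypel1 ran from 27.9 through 35.5 to 57.6 CPM in wild-type and from 31.6 through 37.0 to 49.0 CPM in deletion cortex. Its log2 fold changes were 0.03 ± 0.15 in cortex, -0.25 ± 0.20 in striatum and -0.01 ± 0.20 in cerebellum (SE). The 95% intervals ran from -0.29 to 0.36, from -0.67 to 0.17 and from -0.43 to 0.41. The striatum value was 0.01 without the 4 libraries whose thalamus markers lay above their striatal neuron markers. In cerebellum Ypel1 was at 2.75 ± 0.95 CPM in wild-type and 2.77 ± 0.41 CPM in deletion animals (SD, n = 8), from 61 to 168 counts per library.

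**Figure D3:**
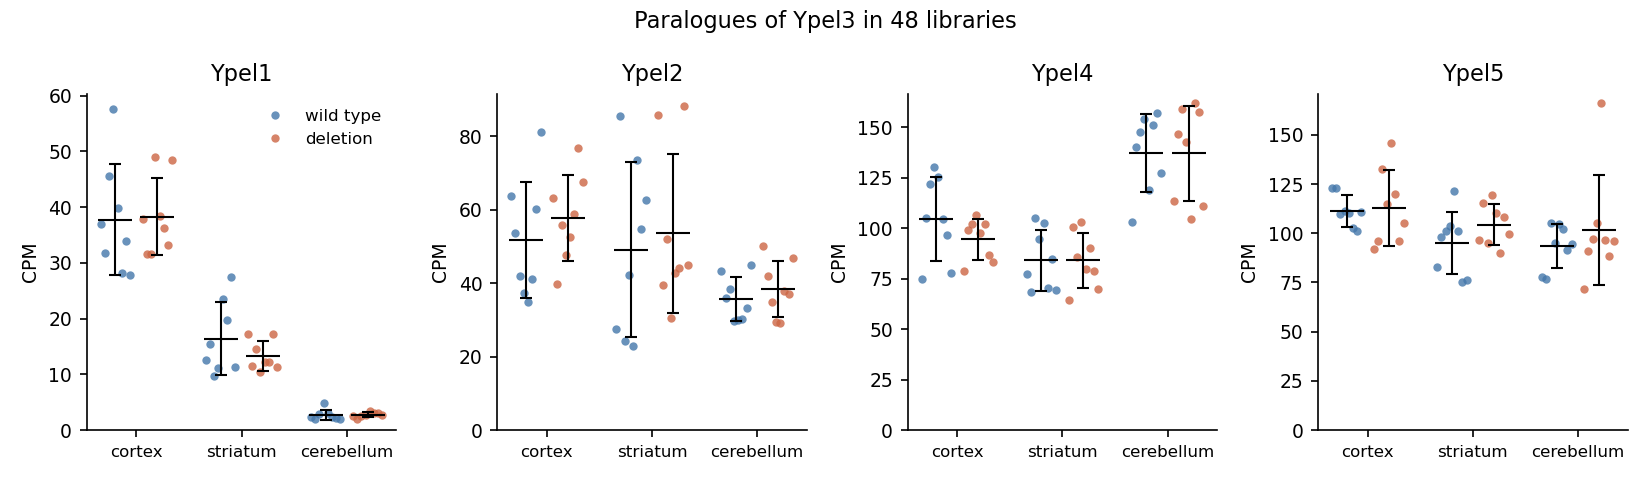
Ypel1, Ypel2, Ypel4 and Ypel5 in CPM (vertical axes, each from 0) in the 48 libraries by tissue, with wild type in blue and deletion in orange; bars give the mean and SD of 8 libraries. Deletion and wild-type libraries overlap in every panel, and Ypel1 falls from cortex (37.7 CPM in wild type) through striatum (16.4) to cerebellum (2.75).

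**Figure D4:**
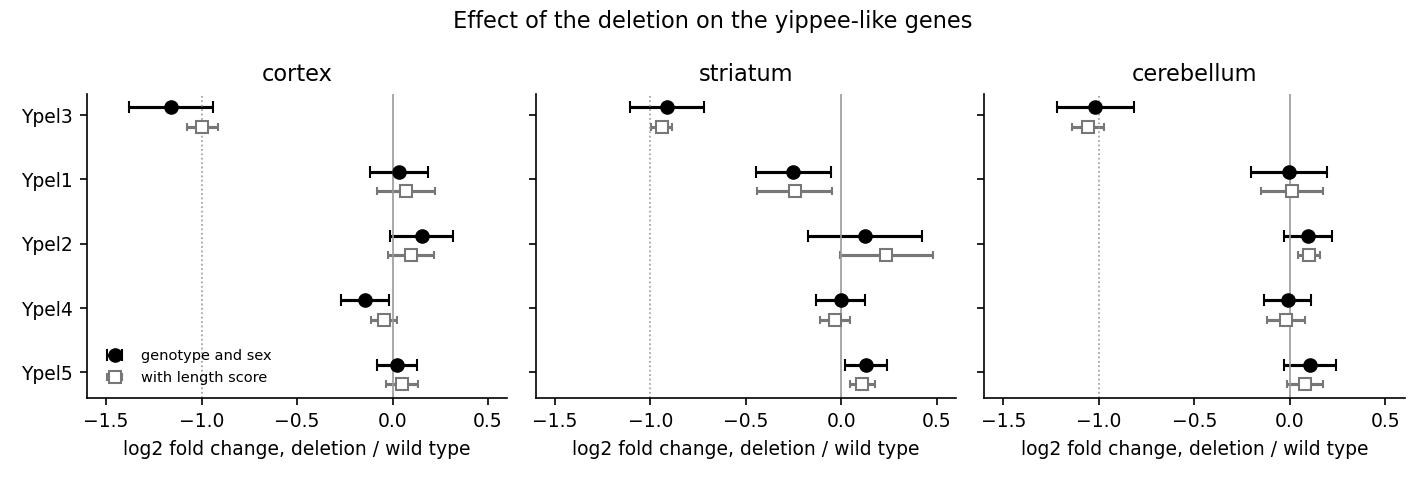
Log2 fold change of deletion against wild type (horizontal axis) for the 5 members in each tissue, with SE bars, from the fit with genotype and sex (filled circles) and the fit with the length score added (open squares). The dotted line marks -1; Ypel3 lies by it at -1.16, -0.91 and -1.02, and the paralogues lie between -0.25 and 0.15.

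No difference of the deletion effect between tissues or sexes was found for a member. The Ypel3 effect differed by 0.26 ± 0.31 between striatum and cortex, 0.14 ± 0.31 between cerebellum and cortex and 0.12 ± 0.31 between striatum and cerebellum (log2, SE). EdgeR called 0 of 18531 genes in these 3 tests, with 343, 234 and 313 genes at an unadjusted p under 0.05. The fit behind these tests did not pair the tissues of an animal. Between females and males the Ypel3 effect differed by -0.24 ± 0.45 in cortex, -0.11 ± 0.40 in striatum and -0.09 ± 0.41 in cerebellum. The 95% interval in cortex, -1.19 to 0.71, is wide. The smallest p of a member was that of Ypel1 in striatum, where the female effect minus the male effect was -0.77 ± 0.35 (edgeR unadjusted p = 0.0442, adjusted p = 1). Wild-type females were at 20.5 and wild-type males at 12.3 CPM there, and deletion animals at 13.3 and 13.4 CPM. The wild-type females W813, W814 and W815 were at 23.6, 19.7 and 27.5 CPM and W816 at 11.3 CPM. The striatum libraries of W813, W814 and W815 had the highest cortical neuron markers of that tissue, whose part was not tested. For the difference of the deletion effect between sexes, edgeR called 0 genes in any tissue. Of all genes tested, 257, 189 and 93 had an unadjusted p under 0.05 in cortex, striatum and cerebellum. Sex as such was not tested.

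The members differed widely in level once exon length was taken into account. In wild-type cortex Ypel3 was at 127 ± 35.1 CPM per kb of exon, Ypel4 at 40.0 ± 7.97, Ypel5 at 26.6 ± 1.91, Ypel2 at 10.7 ± 3.28 and Ypel1 at 8.14 ± 2.15 (SD, n = 8). Ypel3 was highest in all 24 wild-type libraries. Ypel4 followed in 7 of 8 cortex libraries and in all 8 striatum and all 8 cerebellum libraries. At the lower end the ranges of Ypel1 and Ypel2 overlapped in cortex, where Ypel1 was last in 5 and Ypel2 in 3 of 8 wild-type libraries. With the longest transcript as the length, their means were 11.4 and 10.7 CPM per kb in cortex and their order turned. In cerebellum Ypel1 was last in all 8 wild-type libraries, at 0.594 ± 0.204 CPM per kb, with Ypel3 at 165 ± 40.8, 279 times as high.

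The make-up of the family differed between the genotypes. Ypel3 gave 58.9 ± 6.22% of the summed CPM per kb of the 5 members in wild-type cortex and 39.9 ± 7.10% in deletion cortex (SD, n = 8). It gave 54.2 ± 6.80% against 38.6 ± 4.99% in striatum, and 65.9 ± 4.68% against 48.3 ± 5.09% in cerebellum. The family sum was 213 against 141 CPM per kb in cortex, 154 against 117 in striatum and 248 against 167 in cerebellum, so deletion animals were at 66.1%, 75.8% and 67.3% of wild type. In each tissue the loss of the sum, -72.1, -37.2 and -81.1 CPM per kb, was close to that of Ypel3 alone, -70.0, -39.6 and -83.5. In 1 deletion cortex and 1 deletion striatum library, both of the animal D812, Ypel4 was the highest member per kb. In the striatum library the 2 were level, at 26.831 CPM per kb for Ypel4 and 26.824 for Ypel3. Ypel3 remained highest in the other 22 deletion libraries.

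**Figure D5:**
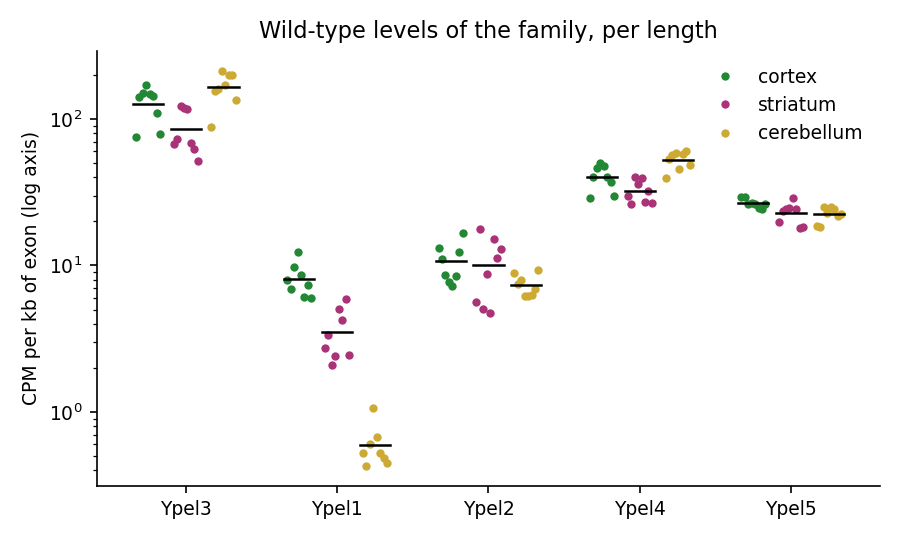
Wild-type level of each member in CPM per kb of exon (vertical log axis), 1 point per library by tissue, with lines at the means of 8 libraries. Ypel3 is highest in every tissue (127, 85.2 and 165 in cortex, striatum and cerebellum), and Ypel1 spans the widest range, from 8.14 in cortex to 0.594 in cerebellum.

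Across tissues of wild-type animals, Ypel1 had by far the steepest gradient of the family. Cortex exceeded cerebellum by 3.78 ± 0.26 on the log2 scale, a fold of 13.7 (SE; edgeR adjusted p = 5.59e-11). Striatum exceeded cerebellum by 2.56 ± 0.25 (adjusted p = 1.60e-08) and lay below cortex, at -1.22 ± 0.24 (adjusted p = 8.88e-04). The Ypel1 ranges of wild-type cortex (27.9 to 57.6 CPM) and striatum (9.73 to 27.5) did not overlap, and neither reached cerebellum (1.99 to 4.90). In the deletion animals, which are separate mice, the same 3 contrasts of Ypel1 were 3.78 ± 0.14, 2.25 ± 0.13 and -1.53 ± 0.13, all called by edgeR. Neither fit paired the 3 tissues of an animal, and for these contrasts the animal was fitted as a block in wild-type animals only. The background of calls between tissues is high: edgeR called 48.9% of 17633 genes between cortex and cerebellum in wild-type animals, 48% between striatum and cerebellum and 18.6% between striatum and cortex. In these contrasts 3, 3 and 1 of 5 members were called. Without the 3 wild-type striatum libraries whose thalamus markers lay above their striatal neuron markers, Ypel1 in striatum was at -1.49 to cortex and 2.29 to cerebellum, both still called. The striatum library of W814, high in cortical neuron markers, stayed in that fit.

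Ypel3 took another order, with cerebellum above cortex above striatum. Striatum lay below cerebellum, at -0.96 ± 0.22 on the log2 scale (SE; edgeR adjusted p = 0.00105), and this was the 1 Ypel3 contrast called in wild-type animals by the fit without a block. The cortex fell between, at -0.38 ± 0.22 to cerebellum (adjusted p = 0.170), and striatum to cortex was -0.59 ± 0.22 (adjusted p = 0.0697, and 0.0312 without W805). With the animal as a block, both passed, at -0.40 (edgeR adjusted p = 0.0165) and -0.58 (0.00347), where 57.4% and 30.4% of all genes were called, and striatum to cerebellum was -0.98 with 56.4% of genes called. In deletion animals the 3 contrasts were -0.89 ± 0.20 for striatum to cerebellum, -0.54 ± 0.20 for cortex to cerebellum and -0.35 ± 0.20 for striatum to cortex. EdgeR called the first (adjusted p = 9.95e-04) and the second (0.0310), but not the third (0.282). In deletion animals 4, 3 and 1 of 5 members were called between cortex and cerebellum, striatum and cerebellum, and striatum and cortex, beside 48.4%, 45.0% and 18.6% of 17615 genes.

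Ypel4 had the same order as Ypel3, at 137 CPM in wild-type cerebellum, 105 in cortex and 84.1 in striatum. Cortex lay below cerebellum, at -0.39 ± 0.14 on the log2 scale (SE; edgeR adjusted p = 0.0215), a call lost without W814 (0.0566) or W815 (0.0788). Striatum lay below cerebellum, at -0.71 ± 0.14 (adjusted p = 1.52e-04). Striatum and cortex differed by -0.32 ± 0.14 (adjusted p = 0.106, and 0.0193 with the animal as a block). In deletion animals the cerebellum was again highest, with -0.54 ± 0.12 for cortex and -0.72 ± 0.12 for striatum, both called by edgeR.

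Ypel5 was nearly level over tissues. Cortex exceeded cerebellum by 0.26 ± 0.10 (SE; edgeR adjusted p = 0.0380), a call lost without W805 (0.124), W806 (0.162) or W808 (0.0634), and the deletion animals gave 0.15 ± 0.14. Striatum and cerebellum differed by 0.03 ± 0.10, with a 95% interval from -0.18 to 0.24. Striatum to cortex was -0.23 ± 0.10 (adjusted p = 0.114; 0.0376 without W813 and 0.0382 with the animal as a block).

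Ypel2 passed in no wild-type contrast. Cortex to cerebellum was 0.54 ± 0.24 (SE; edgeR adjusted p = 0.0705, and 0.0492 without W813) and striatum to cerebellum 0.45 ± 0.24 (0.128). Without the same 3 wild-type striatum libraries the latter was 0.69 (adjusted p = 0.0215). In deletion animals cortex was above cerebellum by 0.57 ± 0.19 (adjusted p = 0.0137) and striatum by 0.45 ± 0.19 (0.0529). Striatum and cortex did not differ beyond their spread in either genotype, at -0.08 ± 0.24 and -0.12 ± 0.18.

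The members did not vary over libraries as a unit. After subtraction of group means, and over 48 libraries that share depth and scaling, the Pearson correlation was 0.797 between Ypel3 and Ypel4 and 0.494 between Ypel3 and Ypel5. Ypel2 ran opposite to Ypel3 at -0.632 and to Ypel4 at -0.654, and Ypel1 was near 0 with Ypel3 at 0.060. Their correlations with the length score had the same signs, at 0.676 for Ypel4, 0.663 for Ypel5, -0.661 for Ypel2 and 0.077 for Ypel1. The last value pools tissues of opposite sign, with 0.242 in cortex, -0.375 in striatum and 0.533 in cerebellum, 16 libraries each. The genes most like Ypel4 were Gpr162, Chkb, a choline kinase, and Eno3, the muscle enolase, at 0.907, 0.903 and 0.876. Those most like Ypel2 were Pde7b, a phosphodiesterase of cyclic AMP, Strn, which encodes striatin, and Caln1, at 0.933, 0.927 and 0.904, all with exon unions of at least 8858 bases. Those most like Ypel5 were Gngt2, a G protein gamma subunit, Anxa6, an annexin, and Gabarapl1, an autophagy protein, at 0.826, 0.808 and 0.804. For Ypel1 the values were lower, at 0.741 for Rasl10a, 0.732 for the receptor gene Mas1 and 0.731 for Mlip. In cortex, where Ypel1 was highest, they were 0.189 for Rasl10a, 0.608 for Mas1 and 0.048 for Mlip, and in striatum and cerebellum each was at least 0.760.

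The genes tied by function to the family were not called in the deletion animals. Over all genes tested by edgeR, 2.03%, 3.32% and 2.08% had an unadjusted p under 0.05 in cortex, striatum and cerebellum, and 0.130%, 0.128% and 0.138% were called. EdgeR called 0 of 10 CTLH/GID subunits tested in each tissue, with 0 at an unadjusted p under 0.05, and DESeq2 and limma-voom called 0. Their median log2 fold changes were 0.02, -0.01 and -0.03 in cortex, striatum and cerebellum, beside 0.0038, -0.0060 and -0.0050 over all genes tested. The CTLH/GID subunits of smallest p were Wdr26, at 0.18 ± 0.19 in cortex, and Ranbp9, at 0.12 ± 0.08 in striatum and 0.10 ± 0.09 in cerebellum (SE).

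Of 29 genes of the p53 pathway and its targets, 28 were tested by edgeR in each tissue and 0 were called by edgeR, DESeq2 or limma-voom. By edgeR 1 had an unadjusted p under 0.05 in cortex, 1 in striatum and 0 in cerebellum. These were Ddit4, a stress-induced inhibitor of mTOR signalling, at 0.40 ± 0.12 in cortex (SE; edgeR adjusted p = 0.965), and Btg2, an antiproliferative gene, at 0.37 ± 0.16 in striatum. The median log2 fold changes of the list were 0.02, 0.03 and 0.05. Of 15 genes of senescence and cell cycle exit, 13, 13 and 12 were tested and 0 were called by the same 3 tools. By edgeR 1, 1 and 0 had an unadjusted p under 0.05. In both lists the counts were of at most 1 gene, and nothing is read from them beside the shares of all genes. The genes were the cyclin-dependent kinase inhibitor genes Cdkn2c, at -0.43 ± 0.17 in cortex, and Cdkn1c, at -0.60 ± 0.24 in striatum. Their list had medians of -0.01, -0.03 and -0.07.

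Between wild-type tissues some of the same genes were called, in contrasts where 48.9% (cortex to cerebellum), 48% (striatum to cerebellum) and 18.6% (striatum to cortex) of all genes were. Rmnd5a, a catalytic RING subunit of the CTLH/GID complex, was lower in cortex than in cerebellum, at -0.94 ± 0.20 on the log2 scale, and lower in striatum by -1.003 ± 0.20 (SE; edgeR adjusted p = 3.13e-04 and 1.82e-04). Of the 10 subunits, 1 was called higher and 3 lower in cortex than in cerebellum, 1 higher and 3 lower in striatum than in cerebellum, and 0 higher and 2 lower in striatum than in cortex, shares near or below those of all genes. Among p53 targets, Plk2, a polo-like kinase of synaptic activity, was higher in cortex than in cerebellum by 2.92 ± 0.24 and Sesn1, a sestrin, lower, at -0.84 ± 0.09 (adjusted p = 9.07e-10 and 2.94e-08). Of the 28 tested, 7 were called higher and 8 lower in cortex than in cerebellum, close to the share of all genes. Cdkn1b, which encodes the inhibitor p27, was lower in cortex than in cerebellum, at -1.85 ± 0.17 (adjusted p = 4.01e-09). It had the lowest value of its list, senescence and cell cycle exit, which ran up to 2.24 in this contrast. Of the 13 genes of that list tested, 3 were called higher and 4 lower in cortex, near the share of all genes.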

How the data were processed

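For the 48 libraries the authors deposited raw counts, whole numbers of reads for each gene, in 1 table. Per the labels' protocols, the kit was a stranded one for mRNA. The submitters' processing notes name STAR 2.4.2a, FastQC 0.10.1, SAMtools and Picard, and the builds GRCm38 and mm8 with no role. Which tool counted the reads, on which annotation, and whether by strand, is not given in the sources used here. Of 47161 features, 92 were ERCC spike-ins (0.0614 to 1.09% of a library's counts) and were left out. Symbols, coordinates, transcripts and lengths came from GENCODE vM21 on GRCm38, which matched 46488 of 47069 identifiers. All columns matched a sample by name.

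Deletion was compared with wild type in each tissue by edgeR 4.0.16 (R 4.3.3): quasi-likelihood test, robust dispersion estimates, TMM size factors, its filter on low counts by genotype, and sex and genotype in the design. P-values were adjusted over all genes tested by the Benjamini-Hochberg method, and calls are at an adjusted p under 0.05. Wild-type tissues were compared in 1 fit of 24 libraries, with deletion animals fitted the same way, and differences of the effect in 1 fit of 48 libraries (tissue) or in 16 libraries with an interaction term (sex). CPM values use TMM over all 48 libraries, log2 CPM adds a prior count of 2, and the SE is the log2 fold change divided by the square root of F. Coding sequences were aligned with Biopython 1.88. DESeq2 1.42.0 and limma 3.58.1 (voom), other scaling and filters, sex-wise fits, each animal left out, the animal as a block and, added after seeing the data, the length score and fits without libraries that stood apart were alternatives. On simulated cortex counts of 16906 genes, the test called 92% of genes changed by 1 on the log2 scale, with 10 false calls. The simulated counts held 100 genes changed by 1 and 100 changed by 2, none of them of low expression. Each gene was drawn independently, so a feature shared across the genes of a library, as the length score is, was not simulated. In the cortex libraries themselves edgeR called 22 genes. Whether the 92% holds for those libraries was not tested.

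An animal number stands for 1 mouse in all 3 tissues, so tissues are paired by animal. The main tissue fits did not use this pairing, and those of deletion animals were not refitted with it. As a check, deviations from the group means correlated within an animal at medians of 0.460 (cortex and striatum), 0.498 (cortex and cerebellum) and 0.285 (striatum and cerebellum), against -0.100, -0.033 and -0.050 between other animals. The deletion and wild-type groups are separate mice and are not paired. Reads carry no molecular identifiers, so the depth covers counting error only.

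The genes named are the 5 members, the 2 nearest tested protein-coding genes on each side of Ypel3 and the 3 genes of highest correlation with each member (protein-coding, at least 1 CPM in 24 libraries, interval genes left out). From each gene list up to 3 called genes per direction and comparison could be named or, with none called, up to 2 of smallest p, of which some are given. The results of 1 of these lists are not reported here. The genes of most opposite pattern were added later. Members and lists were chosen with earlier results of these data known.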

Additional observations from a re-analysis of the deposited data

Results flagged for a closer look

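One library stood apart in 1 of 30 groups of 8 libraries examined, 5 members in 6 groups. Ypel5 in the cerebellum of deletion animal D809 was at 166 CPM, with the next highest library of its group at 105 CPM. The gap was 0.542 of the range of the group, above Dixon's critical value for 8 samples. Chance marks about 1 in 20 groups in this way. The same library had the lowest cerebellar markers of the 16 cerebellum libraries, at a mean log2 CPM of 6.54 against 8.04 to 9.23, and the highest oligodendrocyte markers, at 10.82 against 8.03 to 10.58. Their part in the Ypel5 value was not tested. Over the fits that leave out 1 animal each, the Ypel5 log2 fold change in cerebellum lay between -0.02 and 0.16.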

How the results depend on the processing

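The direction of Ypel3 in the deletion animals was the same in every fit run, from -1.28 to -0.76 on the log2 scale, while its call depended on the fit. EdgeR without the filter on low counts called Ypel3 in cortex (-1.16, adjusted p = 0.0457) and cerebellum (-1.02, 0.0471), as did 1 fit of 48 libraries (-1.16, 0.00343, and -1.02, 0.0215). DESeq2 called it in all 3 tissues (-1.16, -0.91 and -1.02), as did the length score as covariate (-0.996, -0.94 and -1.06), while limma-voom called it in none (-1.16, -0.87 and -1.02; adjusted p = 0.0794, 0.201 and 0.0922). Leaving out 1 animal at a time gave -1.26 to -1.06 in cortex (3 of 16 fits called), -0.99 to -0.76 in striatum (0 called) and -1.11 to -0.92 in cerebellum (1 called). Of all genes, 22, 22 and 23 were called in cortex, striatum and cerebellum; DESeq2 called 34 in cortex and 49 in striatum, 1 fit of 48 libraries 36 in striatum, and the fit without libraries of thalamus markers above striatal markers 13 in striatum and that without W813 and D802, high in choroid plexus markers, 14 in cortex. Males alone gave 2, 4 and 1 calls and females alone 6, 1 and 1, with fewer libraries. The cause of the other shifts was not tested.

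Pairing tissues by animal, as a block, moved Ypel3 past the threshold for cortex to cerebellum (-0.40, edgeR adjusted p = 0.0165) and for striatum to cortex (-0.58, 0.00347), and Ypel4 and Ypel5 for striatum to cortex (-0.31 and -0.25). It raised the genes called between striatum and cortex from 3283 to 5356 and changed no other member's call. The length score, centred within each tissue-by-genotype group for these fits, gave 7977, with Ypel3 at -0.38 and -0.61. So centred, it could change the error but hardly a difference between tissues. These values therefore do not test whether the score accounts for such a difference. DESeq2 gave Ypel3 -0.59 for striatum to cortex (adjusted p = 0.0465). Leaving out animals gave -0.64 to -0.51. Without the filter, Ypel5 in cortex against cerebellum was 0.24 (adjusted p = 0.0854).

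Signs turned only for values that passed no test. In cortex, males alone gave -0.18 for Ypel1 and -0.084 for Ypel5. Ypel4 in striatum was 0.0023 with RLE scaling, 0.021 without the filter, 0.0041 by DESeq2, 0.0018 by limma-voom, 0.032 in males, 0.0074 in the fit of 48 libraries, and 0.041 and 0.049 without libraries of thalamus markers above striatal markers or of high choroid plexus markers. Without the former, Ypel1 in striatum was 0.0093, Ypel2 -0.064 and Ypel2 striatum to cortex 0.16. Ypel1 in striatum was 0.13 in males. Ypel1 in cerebellum was 0.044 by limma-voom, 0.30 in females and 0.011 with the length score, and Ypel4 in cerebellum 0.032 in males. With the block, the Ypel1 effect in cerebellum minus cortex was 0.00026. Leaving out animals gave -0.035 to 0.13 (Ypel1) and -0.054 to 0.070 (Ypel5) in cortex. In striatum it gave -0.025 to 0.35 (Ypel2) and -0.048 to 0.072 (Ypel4). In cerebellum it gave -0.062 to 0.18 (Ypel1), -0.069 to 0.036 (Ypel4) and -0.022 to 0.16 (Ypel5). Between tissues it gave -0.25 to 0.062 (Ypel2, striatum to cortex) and -0.019 to 0.066 (Ypel5, striatum to cerebellum).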
